A study of Mus musculus with 2 samples.

Results

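Foxp3 and the 5 Ikaros family genes were examined for STAT5 binding, together with Ppp1r3f and 4930524L23Rik, which share a binding region with Foxp3. The 8 genes were taken by name from a deposited table of 4934 genes that lay near STAT5 regions, and all 8 were in it. Ppp1r3f and 4930524L23Rik were included because they share the Foxp3 region in this table, so their presence is no result. Of the 21896 protein-coding genes of RefSeq GRCm38.p6, 19.1% were in the table. Binding was measured by chromatin immunoprecipitation and sequencing (ChIP-seq) of STAT5, performed as a STAT5A assay per the labels. The cells were OT-I CD8 T cells on a C57BL/6 background, whose transgenic receptor recognises the SIINFEKL peptide of ovalbumin. Both groups were adoptively transferred, primed in vivo with that peptide plus CD134 and CD137 agonists, and sorted from spleen after 4 days. The control group (1 library) had no further treatment, and the IL-2 group (1 library) received IL-2 at 0.5 µg/ml for 1 hour in vitro. The control's treatment label reads none, so an effect of IL-2 cannot be told apart from one of the hour in vitro. Values are peak heights in signal units on the mm10 build. With 1 library per group there is no replicate error, so no difference below was tested, and the depth of the libraries is unknown. The labels do not say whether mice were pooled.

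IL-2 acts on T cells through JAK kinases that phosphorylate STAT5, which then dimerises and binds DNA, typically at a TTC and a GAA separated by a short spacer. In regulatory T cells, IL-2 and STAT5 sustain Foxp3, the transcription factor that defines the lineage, and STAT5 acts on enhancers both inside the gene and upstream of it. Ikaros family proteins are zinc finger DNA-binding factors that form dimers with each other and recruit chromatin remodelling and corepressor complexes. Ikaros (Ikzf1), Helios (Ikzf2), Aiolos (Ikzf3) and Eos (Ikzf4) are lymphoid regulators, and Helios and Eos are known for their part in regulatory T cells. Pegasus (Ikzf5) is the most divergent member and is expressed broadly.

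Heights in the IL-2 library exceeded those in the control library at all 8 genes. They were largest at a region upstream of Foxp3 and, among the Ikaros genes, at the start of Ikzf4. At the Foxp3 region the height was 4 without IL-2 and 110 after it. The start region of Ikzf4 had 6 and 99. Of the remaining Ikaros genes, Ikzf3 had 7 regions with a highest peak of 85, and Ikzf1 had 10 with a highest peak of 53. Ikzf2 had 3 regions and Ikzf5 had 1, with highest peaks of 26 and 27. Each of the 8 genes had a called IL-2 interval and 0 had a called control interval, which 12 of all 4934 genes had. The table lists genes because of such intervals, so a higher value with IL-2 is built into the choice of genes.

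Sequences at gene starts are shown for the 2 of these regions that lay within 100 bp of an available start window, and for Foxp3, whose region did not. Other regions lay within 1 kb of a start but further from an available window. The Acadsb window, 86 bp from the Ikzf5 region, held no match and is not shown. The windows run from 250 bases before to 50 after a start, 5′ to 3′, from RefSeq on GRCm38.p6, which is the mm10 build. Capitals mark matches of TTCNNNGAA, the STAT5 consensus, which reads the same on both strands.
Start of Gm26876, antisense to Ikzf4, chr10:128645634-128645933, plus strand: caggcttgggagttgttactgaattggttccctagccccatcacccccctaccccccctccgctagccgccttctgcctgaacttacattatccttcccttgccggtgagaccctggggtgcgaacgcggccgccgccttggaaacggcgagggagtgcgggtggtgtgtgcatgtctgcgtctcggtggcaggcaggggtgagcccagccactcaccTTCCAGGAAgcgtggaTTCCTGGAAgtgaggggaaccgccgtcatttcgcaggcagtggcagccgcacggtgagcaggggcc
Start of Ikzf5, chr7:131410429-131410728, minus strand: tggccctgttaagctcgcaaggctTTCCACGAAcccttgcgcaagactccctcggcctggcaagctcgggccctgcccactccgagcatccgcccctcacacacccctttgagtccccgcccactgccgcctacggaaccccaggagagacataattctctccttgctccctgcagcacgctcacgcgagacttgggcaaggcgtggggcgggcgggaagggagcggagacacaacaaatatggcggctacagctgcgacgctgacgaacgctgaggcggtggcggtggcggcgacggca
Upstream start of Foxp3, chrX:7579426-7579725, plus strand: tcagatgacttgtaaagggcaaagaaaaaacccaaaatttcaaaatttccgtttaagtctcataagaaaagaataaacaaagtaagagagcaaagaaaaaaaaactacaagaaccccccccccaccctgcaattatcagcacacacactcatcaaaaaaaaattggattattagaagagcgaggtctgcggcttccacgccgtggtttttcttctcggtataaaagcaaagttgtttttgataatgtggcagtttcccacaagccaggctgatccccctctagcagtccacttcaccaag
Downstream start of Foxp3, chrX:7580233-7580532, plus strand: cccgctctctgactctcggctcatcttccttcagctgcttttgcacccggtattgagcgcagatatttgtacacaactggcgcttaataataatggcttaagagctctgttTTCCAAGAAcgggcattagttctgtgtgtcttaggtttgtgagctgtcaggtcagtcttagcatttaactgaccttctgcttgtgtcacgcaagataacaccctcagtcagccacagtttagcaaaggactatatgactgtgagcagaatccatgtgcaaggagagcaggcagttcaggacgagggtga

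The window at the start of Ikzf4 held the region itself and a pair of matches. It belongs to Gm26876, a noncoding RNA that starts at 128645884 on chromosome 10, on the opposite strand to Ikzf4. The STAT5 region was placed at 128645824, which is 169 bp inside Ikzf4 by the table's gene model and 60 bp before the start of Gm26876. The matches TTCCAGGAA and TTCCTGGAA begin 16 bases apart with 7 bases between them. Their centres are 32 and 48 bp from the region. At least 2 matches were present in 0.457% of all 32851 windows and in 3.68% of the 733 windows within 100 bp of an IL-2 region.

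The window of Ikzf5 also held a match near its region. The region was at 131410736 on chromosome 7, 8 bp outside the window, and the match TTCCACGAA was centred 36 bp from it. Of all windows 8.30% held TTCNNNGAA, against 37.1% of the windows within 100 bp of an IL-2 region and 7.64% of the others. Region positions fall on multiples of 16 bp for 95.5% of regions, so distances of this size are near the resolution of the table. A match is a description of the letters and does not show a bound site.

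For Foxp3 the windows and the region were far apart. The upstream start has no match in its window, and the downstream start, at 7580483, has TTCCAAGAA, 9436 bp from the region. Of the 8 genes, 5 had a window, with 7 windows in all, and 0 of the 7 held a region. TTCNNNGAA was in 3 of these 7, against 8.30% of all windows, and so few windows give no contrast. The 3 were those at Ikzf5, at the downstream start of Foxp3 and at the downstream start of Ikzf1. The Ikzf1 match, TTCTCTGAA, was centred 759 bp from the nearest region. No window was given for Ikzf2, Ikzf3 or Ikzf4 itself.

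The Foxp3 locus had 2 regions, and their heights differed widely. Foxp3 lies on the plus strand of the X chromosome from 7579676 to 7595243 (gene ID 20371). Its region was at 7570912, 8764 bp upstream of the start, as interval number 7206, and its log2 ratio was 3.68, with 5 added to both heights before division. The same region lay 3208 bp inside Ppp1r3f and 2688 bp upstream of 4930524L23Rik. The other region, number 7205 at 7567264, was 3648 bp further from Foxp3. Its heights were 7 and 19 (control first), a log2 ratio of 1.00. It was assigned to Ppp1r3f and 4930524L23Rik and not to Foxp3. Both heights of this weaker region follow from the gene means of Ppp1r3f and 4930524L23Rik, once the shared region is subtracted.

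Ppp1r3f and 4930524L23Rik therefore had identical values. Ppp1r3f, on the minus strand from 7558562 to 7574120, encodes a regulatory subunit of protein phosphatase 1. 4930524L23Rik, on the plus strand from 7573600 to 7581016, is a noncoding RNA named Flicr in RefSeq (gene ID 78185), known to dampen Foxp3 expression. Over 2 regions each had means of 5.5 and 64.5 (control first), a log2 ratio of 2.73. Of the summed IL-2 height of 129, the shared region made up 85.3%. The median of that share over the 873 genes with 2 regions was 63.8%.

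No IL-2 region lay inside Foxp3. The intervals are numbered by position along each chromosome, and the next number after the region at 7570912 was at 7618272, near Cacna1f, 47.36 kb away. This gap covers the starts and the whole body of Foxp3. The next height, at Cacna1f, was 4 in control and 14 with IL-2. On the other side, the nearest interval beyond 7567264 was 258.864 kb away, near Clcn5.

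**Figure D1:**
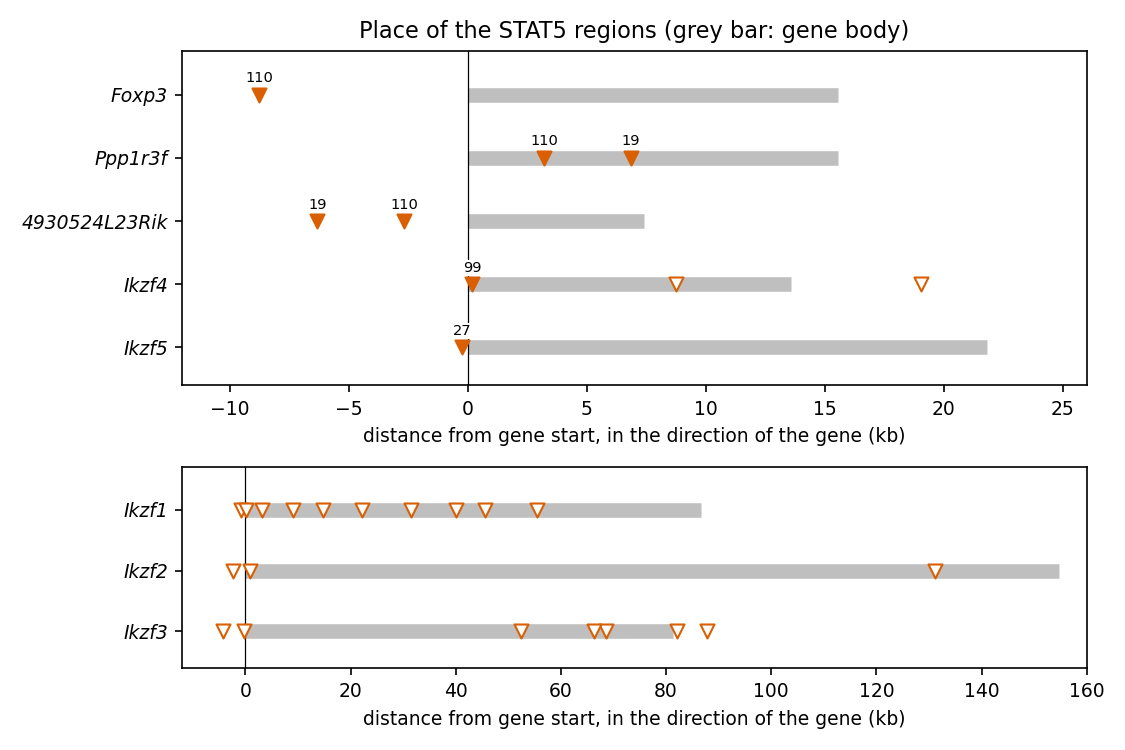
Place of each STAT5 region (triangles) relative to the start of the gene it was assigned to, in kb in the direction of the gene, with gene bodies as grey bars. The lower panel covers a longer distance than the upper. Filled triangles carry a region's own IL-2 height, as at Foxp3 (110) and Ikzf4 (99), and open triangles are regions for which the table gives only a mean over several regions.

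By the log2 ratio Foxp3 ranked 18 of 4934 genes, by mean IL-2 height 32 and by highest peak 172. Its IL-2 height exceeded that of 99.3% of all genes and of 99.1% of the 3292 genes with 1 region. Among the 2482 regions with a height of their own, 31 had an IL-2 height of at least 110, this region included. Such heights are known for genes with 1 region but often not for genes with several, so these regions are no random draw. The median of the mean IL-2 height was 18 over genes with 1 region and 26.3 over genes with 3. In control its height of 4 was that of 21.1% of all genes, and 19.9% were lower. The control value was thus ordinary and the IL-2 value high.

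On the X chromosome the table held 64 genes near 65 regions, 1.14% of all regions. Foxp3 had the largest log2 ratio of the 64 genes. Otud5, which encodes a deubiquitinase, was the 1 gene of the 64 with a higher peak, 116, over 4 regions. It was named for this after its value was seen. The median IL-2 height of genes on the X chromosome was 16.8, against 20.75 over all genes.

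A list of 22 genes around Foxp3 placed the locus among its neighbours. Of these, 8 were in the table, each with a ratio of at least 2 (median log2 ratio 2.32), but Ppp1r3f and 4930524L23Rik carry the Foxp3 region itself. Of the 20 other neighbours 6 were in the table, against 19.1% of protein-coding genes. Their median log2 ratio was 1.93, and all 6 had a ratio of at least 2, as had 83.8% of all genes in the table. They were Otud5 (5 and 52.5), Syp and Prickle3, which shared 2 and 30, Pim2 and Slc35a2, each with 5 and 24, and Cacna1f. Pim2 encodes a kinase that promotes survival. The other 14 genes, among them Tfe3, Hdac6 and Ccdc22, were not in the table.

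All 8 genes had a ratio of at least 2, as did 83.8% of all genes in the table. A ratio of at least 4 was reached by 4 of the 8, namely the 3 genes of the Foxp3 locus and Ikzf4, against 23.1% of all genes. The first 3 of these share 1 region. The median log2 ratio of the 8 was 2.07, and that of all genes 1.42. The Foxp3 region enters the median of the 8 through 3 genes, and the 5 Ikaros genes alone had a median of 1.83. With the libraries brought to an equal median, the median log2 ratio of all genes fell by 1.28 on the log2 scale. The 8 genes were then still higher with IL-2, as were 58.7% of all genes, and the 3 genes of the Foxp3 locus had a ratio of at least 2, against 11.9%. After that scaling Ikzf1 (0.07) was below the median of all genes (0.13).

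**Figure D2:**
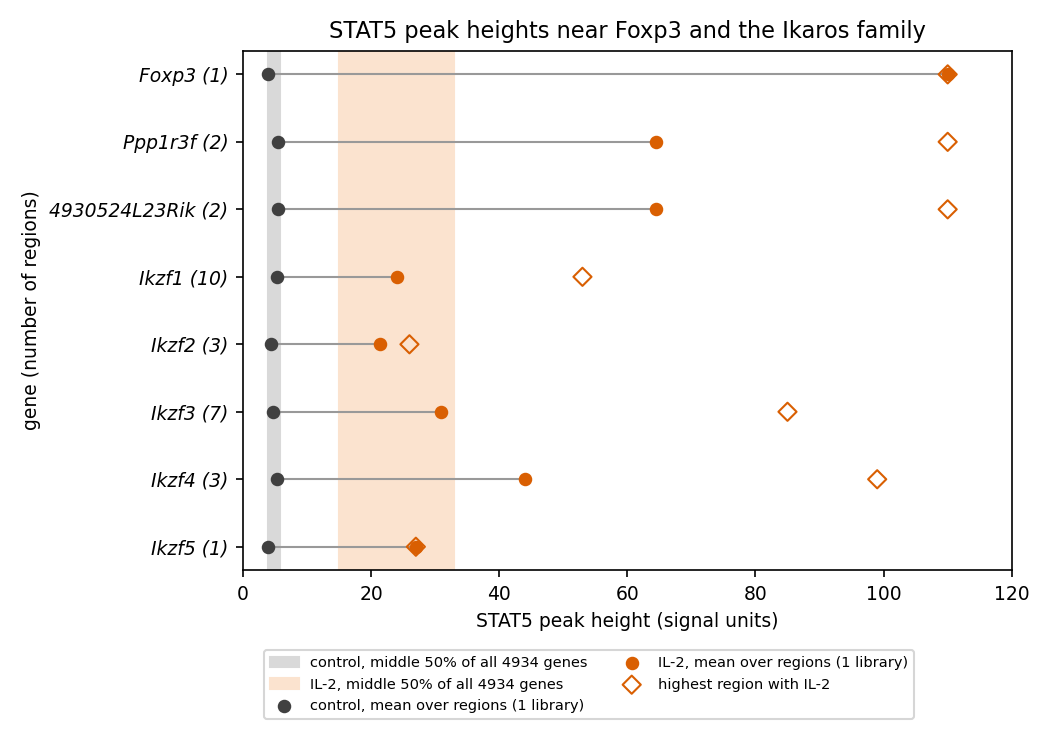
Mean STAT5 peak height over the regions of each gene in the control library (dark points) and the IL-2 library (orange points), with the highest single region as open diamonds, in signal units. Shaded bands give the middle 50% of all 4934 genes, from 4 to 5.8 in control and from 15 to 33 with IL-2. Foxp3, Ppp1r3f, 4930524L23Rik and Ikzf4 have IL-2 means above the upper band, and Ikzf1, Ikzf2, Ikzf3 and Ikzf5 have means inside it.

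The Ikaros family had 24 regions near 5 genes, and the family's mean heights ranged from 4 to 5.4 in control and from 21.3 to 44 with IL-2. The order with IL-2 was Ikzf4, Ikzf3, Ikzf5, Ikzf1 and Ikzf2. Without replicates it cannot be said which neighbours in this order differ. Their median log2 ratio was 1.83, with 1 of the 5 at a ratio of at least 4. Foxp3 stood above each of them in mean height and log2 ratio. Its mean is a single region, however, while those of Ikzf1, Ikzf2, Ikzf3 and Ikzf4 average stronger and weaker regions. By highest peak the gap was smaller, with 110 at Foxp3, 99 at Ikzf4 and 85 at Ikzf3.

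Ikzf4, which encodes Eos, lies on the minus strand of chromosome 10 from 128632415 to 128645993 (gene ID 22781). Over 3 regions the means were 5.33 and 44 (control first), and the log2 ratio was 2.25, above 84.2% of all genes by the ratio. Its regions, numbers 998 to 1000, differed widely. The start region, described with its sequence above, had 6 and 99 (log2 ratio 3.24), an IL-2 height above 98.2% of the 2482 regions with a height of their own. The other regions, 8761 bp inside the gene and 19033 bp from the start beyond its end, are shared with Rps26, which encodes a ribosomal protein. Their IL-2 heights were 19 and 14, in an order the table does not give, with a control sum of 10. The start region thus made up 75% of the summed IL-2 height, a share larger than in 92.8% of the 362 genes with 3 regions, where the median was 52.4%.

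Ikzf2, which encodes Helios, also had 3 regions but no strong one. It lies on the minus strand of chromosome 1 from 69531207 to 69685960 (gene ID 22779). Means were 4.33 and 21.3 (control first), and 54.6% of all genes had a lower ratio. Regions 191 to 193 were 2296 bp upstream of the start, 776 bp inside, and 131224 bp inside near the far end of this long gene. The highest had 26 and the other two averaged 19. The highest region held 40.6% of the summed height, a share above that in 15.2% of genes with 3 regions. Ikzf2 and Ikzf4 thus had the same number of regions but a highest peak of 26 in the former and 99 in the latter.

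Ikzf3, which encodes Aiolos, had 7 regions, numbers 1388 to 1394, over a span from upstream to downstream of the gene. It lies on the minus strand of chromosome 11 from 98464693 to 98546031 (gene ID 22780). Means were 4.71 and 30.9 (control first), a log2 ratio of 1.88. The strongest signal lay beyond the gene's end. A pair of downstream regions, at 98463936 and 98458336, are shared with Grb7, which encodes a signalling adaptor, and their IL-2 heights were 85 and 25 in an order the table does not give. Together they made up 110 of the summed 216 (50.9%), with 9 in control. The other 5 regions averaged 4.8 in control and 21.2 with IL-2. They were placed 369 and 4313 bp upstream, both shared with Zpbp2, and 52431, 66255 and 68607 bp inside the gene. Without the regions shared with Grb7, the log2 ratio of the Ikzf3 means was 1.42. Leaving out the pair with the highest region lowers the IL-2 mean by construction. This value is therefore not comparable with the median of all genes, which keep their highest regions.

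Ikzf1, which encodes Ikaros, had the most regions of the family, 10. It lies on the plus strand of chromosome 11 from 11686213 to 11772926 (gene ID 22778). Of all 4934 genes, 27 had 10 or more regions. Means were 5.4 and 24 (control first), a log2 ratio of 1.48, so that 53.5% of all genes had a lower ratio. Regions were placed 853 bp upstream and 187, 3227, 8987, 14811, 22203, 31419, 39963, 45499 and 55499 bp inside the gene, with none assigned further in. The interval numbers, 1040 to 1049, are consecutive, so no other interval lay between them. The highest peak was 53 and the other 9 regions averaged 20.8. The table does not give which region had 53. The highest region made up 22.1% of the summed height of 240, below the median of 24.6% for the 7 genes with 10 regions. The mean IL-2 height of 24 was also below the median of these genes, 27.9.

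Ikzf5, which encodes Pegasus, had 1 region at a divergent pair of gene starts. It lies on the minus strand of chromosome 7 from 131388649 to 131410478 (gene ID 67143). The region, number 6360, was 258 bp upstream of Ikzf5 and 135 bp inside Acadsb, which encodes an acyl-CoA dehydrogenase and runs the other way. Heights were 4 and 27 (control first), a log2 ratio of 1.83, and the same values stand for both genes. The control height equals that at Foxp3, and the IL-2 heights were 27 and 110.

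**Figure D3:**
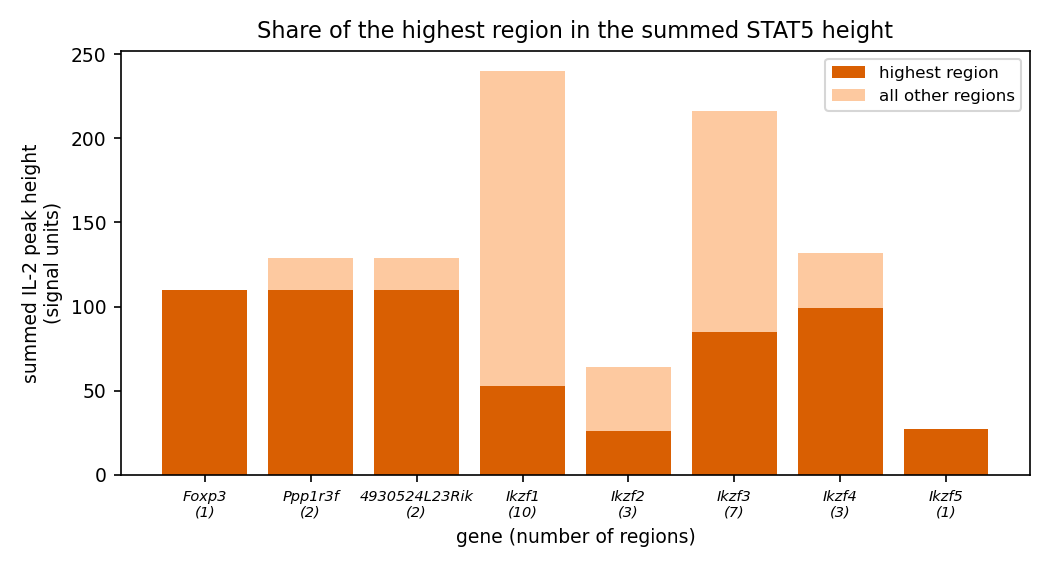
Summed IL-2 peak height of each gene in signal units, divided into its highest region (dark) and all other regions (light), with the number of regions in brackets. The highest region makes up 75% of the sum at Ikzf4, 39.4% at Ikzf3 and 22.1% at Ikzf1, although Ikzf1 has the largest sum, 240.

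Regions close to gene starts were about as frequent here as in the whole table. Of the 26 distinct regions, 8 had a listed gene's start within 1 kb (30.8%), against 27.5% of all 5703 regions. Of these 8, 6 were at starts of the Ikaros genes, and the others at Rps26 and Zpbp2. Within 5 kb of a listed start the count was 11 of 26 (42.3%), against 46% of all regions. Exon and intron boundaries were not used here.

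Genes with the same number of regions and the nearest heights in both libraries were named by distance on the log2 scale. For Foxp3 these were Klhdc1 (4 and 104), Ehmt2 (5 and 110), and Il23a, Pan2 and Wdr37 (each 5 and 109), of which Il23a and Pan2 share a region. For Ikzf4 they were Ccnd3 (5.33 and 44.3), Fgl2 (5.33 and 43.3), Kdsr, 4930478L05Rik and Nipal3. For Ikzf1 the choice was nearly fixed, since only 7 genes, Ikzf1 included, had 10 regions. Wwox (5.3 and 22.4) and Ptprj (5 and 25.7) were nearest, followed by Asap1. Cdk17 (5 and 35.6) and Ets1 (5.9 and 36.1) came next but were higher with IL-2 than Ikzf1. For Ikzf3 they were Arhgap26 (4.71 and 31.1), Wipf1, Ankrd11, Hecw2 and Cradd. For Ikzf2 they were Iqcd and Zcchc2 (each 4.67 and 21.3), Gm5544, Klre1 and Ptpn6. Ikzf5 had exact equals, the first by name being Ankib1, Cnga4, Dnajc9, Fam149b and Fam160a2. These likenesses rest on 2 values per gene.

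**Figure D4:**
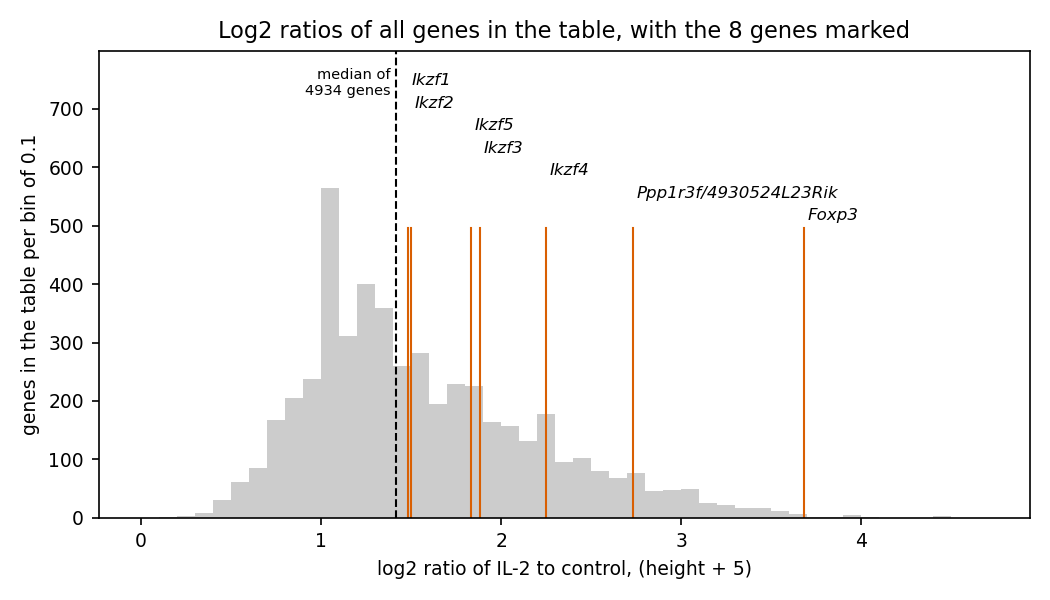
Log2 ratios of IL-2 to control (heights plus 5) of all 4934 genes in bins of 0.1, with vertical lines at the 8 genes and a dashed line at the median of all genes, 1.42. Ikzf1 and Ikzf2 lie next to the median, Ikzf4 above it at 2.25, and Foxp3 in the upper tail at 3.68.

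Genes that act with Foxp3 or the Ikaros proteins were covered by lists, to be read against 19.1% of protein-coding genes in the table and 83.8% of the table's genes at a ratio of at least 2. Of the 4 FOXP genes, 3 were in the table, 2 of them with a ratio of at least 2 (median log2 ratio 2.15). Foxp1, a regulator of T cell quiescence, had 18 regions with means of 5.5 and 41.6 and a highest peak of 130. Foxp4 had 4 and 12 (log2 ratio 0.92), and Foxp2 was not in the table. The 110 at Foxp3 and the 130 at Foxp1 are of similar size, but at Foxp1 the mean was lower over many regions.

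Of 29 regulators and partners of Foxp3, 22 were in the table, 21 with a ratio of at least 2, where all genes gave 83.8%. The median log2 ratio was 1.37, below the 1.42 of all genes, and after scaling 0 of the 22 reached a ratio of 2, where all genes gave 11.9%. Nr4a2 (4 and 37), an orphan nuclear receptor, Foxo1 (5 and 41.3) and Ets1 (5.9 and 36.1 over 10 regions) were highest, and Dnmt1, a DNA methyltransferase, lowest (4.5 and 12.5). Stat5b itself had 6.5 and 22, and Stat5a was not in the table. Of 22 surface and effector genes of regulatory T cells, 16 were in the table, 14 with a ratio of at least 2, close to the 83.8% over all genes. The median log2 ratio was 1.84, and after scaling 2 of the 16 had a ratio of at least 2. Il2ra, the gene of CD25 (5.5 and 81.2, highest peak 164), Tnfrsf18 (6.33 and 75.7) and Il2rb (5.33 and 48.3) led, and Klrg1 was lowest (4 and 12). By ratios of gene means Foxp3 was above each of these 16 genes, but its mean is 1 region, while most of theirs average several. By highest peak Il2ra (164), Tnfrsf18 (119) and Tnfrsf4 (119) exceeded the 110 at Foxp3, and the rest of the 16 did not. The equal peaks of Tnfrsf18 and Tnfrsf4 may be the same region.

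Of 20 genes of Ikaros partner complexes, 9 were in the table, 6 with a ratio of at least 2, a smaller share than the 83.8% over all genes (median log2 ratio 1.55). Smarca4, the catalytic subunit of a chromatin remodelling complex, had 4 and 55, Hdac1, a histone deacetylase, 3 and 33, and Mbd2 6.67 and 41.3. Chd4, the remodelling ATPase of the NuRD complex to which Ikaros binds, had 7 and 11 (log2 ratio 0.42). Of 5 genes of the cereblon ubiquitin ligase, which degrades Ikaros and Aiolos in the presence of certain drugs, Rbx1 was in the table (6 and 25). Among cell type markers, 5 of 5 CD8 T cell genes were in the table, and 0 of 3 B cell and 0 of 3 myeloid genes, where 19.1% of protein-coding genes were. So few genes give no contrast between cell types. A region near a gene does not measure its expression, so these data do not show whether the cells express Foxp3, and the part of other cells in the Foxp3 signal was not tested.

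**Figure D5:**
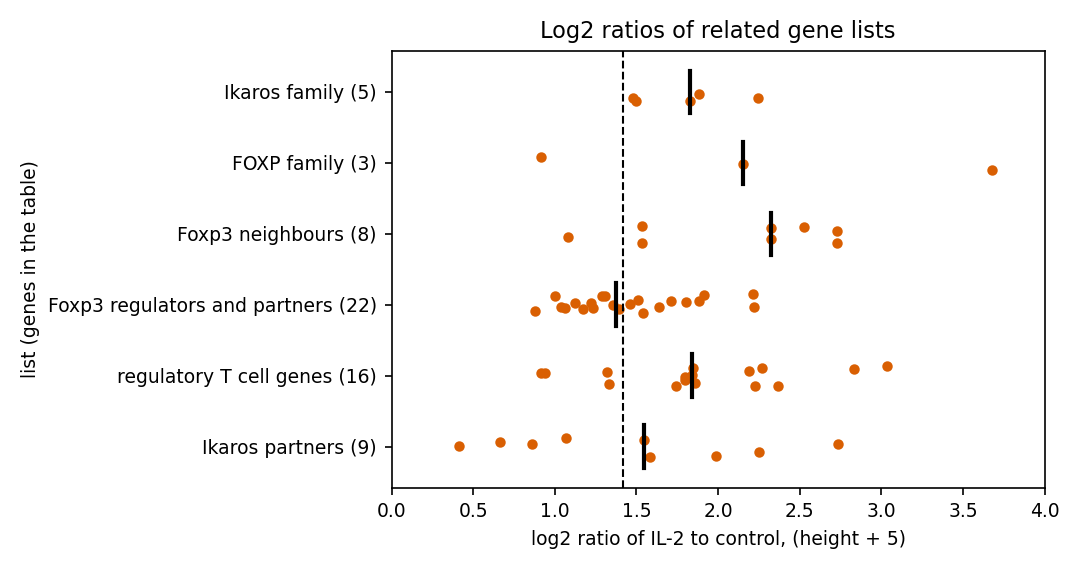
Log2 ratios of IL-2 to control (heights plus 5) of the Ikaros family and of the related lists, 1 point per gene in the table, with vertical bars at list medians and a dashed line at the median of all genes, 1.42. The Ikaros family has a median of 1.83, and the rightmost point, Foxp3, stands at 3.68.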

How the data were processed

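Peak heights of 1 control and 1 IL-2 library were read from a table of genes deposited by the authors, in which heights are signal values. The submitters' processing notes name BWA and, as build, mm10. Not given in the sources used here were the peak caller, read extension, depth and scaling. Per the file headers, the authors gave each gene a mean height per library, the highest peak over both libraries, flags for called intervals and interval counts (these last are other values than signal). For 6 genes, none of them described here, the control mean was no mean of whole heights over all regions.

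Log2 ratios used a pseudocount of 5, which understates the fold of low heights, and ratios of at least 2 were counted. Positions came from gene start and distance. Single heights were solved from the sums of genes that share regions, for 2482 of 5703 regions. On simulated data for 5675 regions this step returned the right height for 2483 of the 2483 it determined. The simulated sums covered all regions of each gene by construction, so that run checks the code only. It does not test the heights solved from the real means. Member genes matched RefSeq by gene ID (8 of 8). The 8 genes and all lists were chosen with earlier results of these data known. The naming rule took all 8 genes, the 3 highest and the lowest of each list, all listed neighbours of Foxp3, and 5 like genes for Foxp3 and each Ikaros gene. Python 3.11.15, pandas 2.3.3, numpy 2.4.6 and matplotlib 3.10.9 were used. There were 0 columns of other samples.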

Additional observations from a re-analysis of the deposited data

How the results depend on the processing

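No paired analysis was possible because a single library stands for each treatment. Scaling could have changed the sign of the 8 log2 ratios and changed 0 of them, while the other settings could not change a sign. The median log2 ratio of the 8 genes, 2.07, became 2.66 with a pseudocount of 1, 1.65 with 10, 0.65 after scaling to a common median, and 3.27 when the highest peak stood for the IL-2 mean. The median of all genes under these settings was 2.00, 1.06, 0.13 and 1.53. Under each setting the median of the 8 counts the Foxp3 region in 3 genes. With scaling the log2 ratio was 2.26 at Foxp3, 1.23 at Ppp1r3f and 4930524L23Rik, 0.79 at Ikzf4, 0.51 at Ikzf5, 0.50 at Ikzf3, 0.18 at Ikzf2 and 0.07 at Ikzf1. With the highest peak it was 3.33 at Ikzf4, 3.21 at Ikzf3 and 2.48 at Ikzf1, since a maximum over several regions was then set against a control mean. Foxp3, with 1 region, kept its log2 ratio of 3.68, which was then above 97.9% of all genes in place of 99.6%.

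All 8 genes reached a ratio of 2. A ratio of 4 was reached by 4 of them, and a ratio of 2 after scaling by 3. The other settings left 8. A ratio of at least 4 was reached by 23.1% of all genes. Among listed genes the counts were 5 of 8 Foxp3 neighbours, 2 of 22 Foxp3 regulators and 6 of 16 regulatory T cell genes. They were 2 of 9 for Ikaros partners, 2 of 3 for the FOXP family and 0 of 1 for the cereblon ligase. Without Ppp1r3f and 4930524L23Rik, which carry the Foxp3 region, the neighbours gave 3 of 6. These were Otud5 and the pair Syp and Prickle3, which had equal values. After scaling, 11.9% of all genes reached a ratio of at least 2. The counts were then 1 of 3 for the FOXP family, 5 of 8 for the neighbours (Ppp1r3f and 4930524L23Rik included) and 0 of 22 for the regulators. They were 2 of 16 for regulatory T cell genes, 2 of 9 for Ikaros partners and 0 of 1 for the cereblon ligase. A stricter ratio lowers counts by construction, and scaling sets the medians of the libraries equal. The count of regions near a start of the 8 genes went from 6 within 1 kb to 10 within 5 kb. The unknown depth limits all heights, and counting error could not be given.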

Other observations

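The RefSeq model of Ikzf4 on GRCm38.p6 is longer than that of the deposited table, with its end at 128669671 in place of 128645993, which moves a start of this minus-strand gene 23678 bp upstream. A region at 128663616, assigned in the table to Suox, which encodes sulfite oxidase, lies inside the longer model. It had 4 in control and 17 with IL-2, against 6 and 99 at the start region of the table's model. The RefSeq model of Ikzf1 begins 1251 bp before that of the table, so the region placed 853 bp upstream of Ikzf1 lies inside the longer model, and also inside Gm11999, a noncoding RNA on the opposite strand.

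A spaced form of the STAT5 motif, with 4 bases between TTC and GAA, was in 6.95% of all promoter windows and in 8.46% of those within 100 bp of an IL-2 region. The window of Rps26 held a match, TTCACAGGAA, centred 317 bp from the downstream region of Ikzf4 at 128626960. The 4 windows at the Foxp3 locus and the windows of Ikzf1 and Ikzf5 held 0 matches of this form.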
